A study of Homo sapiens with 9 samples.

Results

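The genes described here are the transcription and splicing factors that hold cells on either side of the epithelial-mesenchymal transition (EMT). They are SNAI1, SNAI2, ZEB1, ZEB2, TWIST1 and TWIST2 on the mesenchymal side, and GRHL2, OVOL1 and the splicing factors ESRP1 and ESRP2 on the epithelial side. The members were chosen by name as commonly studied regulators of this switch, with earlier results of these data known. All 10 of them were among the 18132 genes measured, by 25 probe sets. Where a gene had several probe sets, the probe set with the highest mean over all arrays was used for the gene, and the other probe sets are described beside it.

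EMT is a program in which epithelial cells loosen their junctions, lose apical-basal polarity and take on a motile, fibroblast-like form. SNAI and ZEB proteins are zinc-finger repressors that bind E-box motifs in the promoters of junction and polarity genes such as CDH1, which encodes E-cadherin, and TWIST proteins are basic helix-loop-helix factors with a similar output. GRHL2 and OVOL1 maintain epithelial transcription, and ESRP proteins bind pre-mRNA and direct the epithelial choice of exons in genes such as FGFR2 and CD44. In basal B breast cancer lines the mesenchymal side is known to be high and the epithelial side low.

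RNA was measured on 9 Affymetrix PrimeView arrays from cultures of the breast cancer cell line MDA-MB231, long established and of human origin. Cells received 3 µM PD325901, an inhibitor of the kinase MEK (3 arrays), 10 µM BB94, which is the metalloproteinase inhibitor batimastat (2 arrays), or 0.1% DMSO as vehicle control (4 arrays). All cultures were lysed 24 h after treatment in serum-containing medium, and both inhibitors came from DMSO stock. Every culture was of this 1 line, and each inhibitor was given at 1 dose. The study's title links resistance to kinase inhibitors with reduced shedding of receptor kinases, and the comparisons below ask how each inhibitor left the RNA of the EMT regulators. They share the 4 control arrays, so the changes with each inhibitor are not independent of each other.

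Values are log2 signals as deposited after RMA, a routine that corrects background, normalizes the arrays to each other and summarises the probes of a probe set, so a difference of 1 is a doubling of signal. Calls were made where limma's adjusted p was under 0.05, in a model fitted across all genes with the spread estimated over all 9 arrays. The labels describe the samples as biological replicates, and the p-values measure the spread between these cultures. The background level of an array was the highest of its 23 background control probe sets, 6.02 to 6.50 across arrays. This is a strict level, and a gene below it need not be absent. Probe sets differ in their affinity, so levels are compared between groups and not between genes.

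Cell identity was read from marker genes. All 10 basal B markers, among them VIM, CD44 and AXL, lay above background on all 9 arrays. With PD325901, 4 of these 10 had a mean above that of control cells and 6 below it. With BB94, 8 were above and 2 below. Their mean log2 level was 11.70 to 11.71 in PD325901, 11.75 to 11.81 in BB94 and 11.68 to 11.71 in control cells. Of 10 luminal markers, 6 lay above background on all 9 arrays (KRT8, KRT18, KRT19, EPCAM, GATA3 and FOXA1), while ESR1, PGR, CDH1 and TFF1 lay below it on all 9. The mean log2 level over the luminal markers was 8.11 to 8.16 in PD325901 cells, 7.46 to 7.62 in BB94 cells and 7.84 to 7.97 in control cells, so the 3 groups did not overlap. The single markers were mixed with PD325901: 7 had a mean above that of control cells and 3 below it. Among the 3 was KRT18, at 10.86 in PD325901 and 12.01 in control cells. With BB94, 1 had a mean above that of control cells and 9 below it. The part of this shift in the results below was not tested. All leukocyte and endothelial markers lay below background on every array, and of 5 fibroblast markers only COL1A1 was above it on all 9. The mean over the fibroblast markers followed the luminal order, again without overlap. It was 4.96 to 5.02 in PD325901, 4.57 to 4.63 in BB94 and 4.64 to 4.88 in control cells. The order was thus not particular to luminal markers, though basal B markers did not share it. The median gene of an array was at least 7.77 with PD325901 and at most 7.61 in control cells. The part of such a general shift in the luminal means was not tested. DUSP6 and CCND1, both ERK-dependent genes, fell 16.2-fold (log2 change -4.01 ± 0.53 SE, adjusted p = 1.5e-04) and 9.78-fold (log2 change -3.29 ± 0.13 SE, adjusted p = 3.6e-08) with PD325901. DUSP6 was uneven among the PD325901 arrays, at 11.04, 8.99 and 8.02, against 13.24 to 13.52 in control cells. The difference between the 3' and 5' probe sets of ACTB, a measure of RNA integrity, was 3.50 to 4.15 in PD325901, 3.91 and 4.22 in BB94 and 2.96 to 3.89 in control arrays.

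PD325901 raised SNAI2 and both ESRP genes and left the other regulators uncalled. Of the 10 regulators, 3 were called higher with PD325901 and 0 lower, and 4 had an unadjusted p under 0.05. Over all genes, 22.8% were called higher and 12.3% lower in the same comparison, so a count of 3 in 10 lies near that background. All PD325901 arrays lay above all control arrays for 3 regulators and below them for 1, as they did for 25.6% and 14.8% of all genes. The median change of the 10 was 0.16 on the log2 scale, and that of all genes was 0.08. BB94 raised SNAI2 alone: 1 of the 10 was called higher and 0 lower, while 0.491% of all genes were called higher and 1.09% lower. With BB94 too, 4 of the 10 had an unadjusted p under 0.05. The share of all genes under that unadjusted threshold was not counted for either inhibitor, so these counts have no background beside them. With BB94 the median change of the regulators was -0.04 and that of all genes -0.02. Both BB94 arrays lay above all control arrays for 1 regulator and below them for 1, against 6.35% and 11.0% of all genes. Between the inhibitors, ESRP1 and ESRP2 were called higher in PD325901 than in BB94 cells and 0 regulators lower, where 21.0% of all genes were called higher and 10.2% lower. The PD325901 arrays lay above both BB94 arrays for 4 regulators (SNAI2, ZEB2, ESRP1 and ESRP2) and below them for ZEB1, against 40.7% and 20.1% of all genes.

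**Figure D1:**
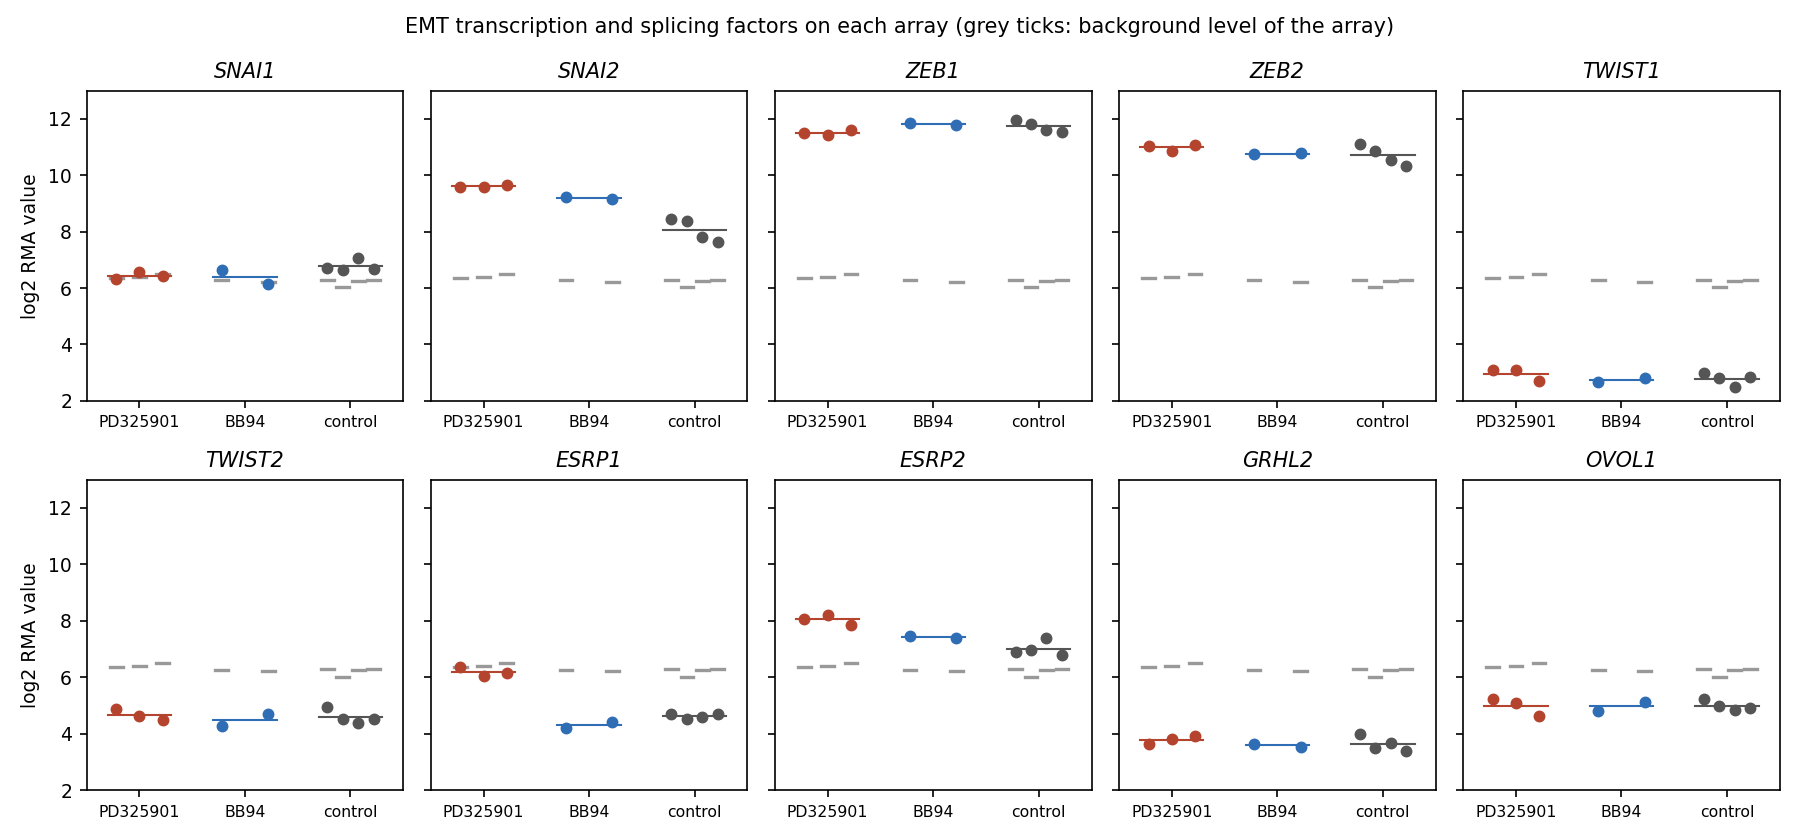
Log2 RMA value (vertical axis) of each regulator on each array, by group, with points for arrays, coloured bars for group means and grey ticks for the background level of each array. SNAI2 lies highest in the 3 PD325901 arrays (9.59 to 9.67) and lowest in the 4 control arrays (7.63 to 8.45), ESRP1 and ESRP2 are highest in PD325901 arrays, and TWIST1, TWIST2, GRHL2 and OVOL1 lie below background in every group.

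SNAI2, which encodes the E-box repressor SLUG, was the only regulator called with both inhibitors. Over all 18132 genes, 47 were called higher with both inhibitors, among the 89 called higher with BB94. The log2 level of SNAI2 was 9.60, 9.59 and 9.67 in PD325901 cells, 9.22 and 9.17 in BB94 cells and 8.45, 8.39, 7.81 and 7.63 in control cells. Every array of either inhibitor lay above every control array, and the controls were split, with replicates 3 and 4 below replicates 1 and 2. With PD325901 SNAI2 rose 2.92-fold (log2 change 1.55 ± 0.18 SE, 95% interval 1.14 to 1.95, adjusted p = 7.2e-05). With BB94 it rose 2.18-fold (log2 change 1.12 ± 0.21 SE, 95% interval 0.66 to 1.59, adjusted p = 0.025). PD325901 cells lay 0.42 above BB94 cells, with a 95% interval of -0.06 to 0.91 and an adjusted p of 0.185, so the order of the inhibitors was not resolved in the main fit. The PD325901 arrays all lay above both BB94 arrays, as they did for 40.7% of all genes. The difference was called in 2 of 19 alternative settings (lowest adjusted p by limma 0.0037).

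The division of the controls changed the size of the SNAI2 difference and not its direction. Against control replicates 1 and 2 alone the log2 change was 1.20 with PD325901 and 0.77 with BB94 (adjusted p = 1.3e-05 and 0.0052). Against replicates 3 and 4 alone it was 1.90 and 1.47 (adjusted p = 1.5e-06 and 2.8e-04). The call with PD325901 was made under all 21 alternative settings. The call with BB94 rested on few arrays: it was lost without BB94 replicate 1 (log2 change 1.10, adjusted p = 0.186), BB94 replicate 2 (1.15, 0.25) or control replicate 3 (1.04, 0.0596), and narrowly without PD325901 replicate 2 or 3 (1.12, with 0.0511 and 0.0517), since all arrays share the spread. In bulk RNA, more cells with SNAI2 transcript and more transcript per cell cannot be told apart.

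SNAI1, the paralogue that encodes SNAIL, was not called with either inhibitor. Its log2 level was 6.32, 6.58 and 6.41 in PD325901 cells, 6.64 and 6.13 in BB94 cells and 6.71, 6.63, 7.05 and 6.67 in control cells. The PD325901 arrays all lay below the controls, while a BB94 array fell within the control range, and only 1 of 3 PD325901 and 1 of 2 BB94 arrays was above background against 4 of 4 controls. The change was -0.33 with PD325901 (95% interval -0.64 to -0.01, adjusted p = 0.103) and -0.37 with BB94 (-0.73 to -0.02, adjusted p = 0.429), so neither was called. Centring the arrays on their median gene brought SNAI1 to -0.58 with PD325901 (adjusted p = 0.0022), centring on the median probe set to -0.43 (adjusted p = 0.0191) and cyclic loess to -0.55 (adjusted p = 0.008). The first centring moves the median of all genes to -0.17, against 0.08 as deposited.

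ZEB1 and ZEB2, the large zinc-finger and homeodomain repressors, stood far above background on all 9 arrays. ZEB1 had 11.50, 11.41 and 11.61 in PD325901 cells, 11.85 and 11.77 in BB94 cells and 11.97, 11.81, 11.60 and 11.54 in control cells. PD325901 and control arrays overlapped, and control replicates 3 and 4 were again the lower pair. The change was -0.22 with PD325901 (95% interval -0.47 to 0.02, adjusted p = 0.159) and 0.08 with BB94 (adjusted p = 0.929). PD325901 arrays all lay below BB94 arrays, with a difference of -0.30 (95% interval -0.60 to -0.01, adjusted p = 0.12), which was called under either centring (-0.63 and -0.52, adjusted p = 0.0041 and 0.005).

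ZEB1 was the regulator with the most probe sets, and they did not give a single answer. With PD325901 the change was negative for all 7, and 2 were called lower over all probe sets. The probe set 11721546_s_at read 6.88, 7.67 and 7.59 in PD325901 cells, 7.42 and 7.23 in BB94 cells and 8.06, 8.03, 7.90 and 8.20 in control cells. Both inhibitor groups therefore lay wholly below the controls on it, with changes of -0.67 with PD325901 (adjusted p = 0.0113) and -0.73 with BB94 (adjusted p = 0.115). The other called probe set, 11749136_x_at, changed by -0.40 with PD325901 (adjusted p = 0.0419) but lay below background on every array. The remaining 5 ranged from -0.36 to -0.16 and were not called, and with BB94 none of the 7 was called. The gene itself was called lower with PD325901 when the mean of its probe sets was used (-0.32, adjusted p = 0.0381), under either centring (-0.48 and -0.33, adjusted p = 0.0065 and 0.0236), with array quality weights (-0.31, 0.00998) and against control replicates 1 and 2 alone (-0.38, 0.0123).

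**Figure D2:**
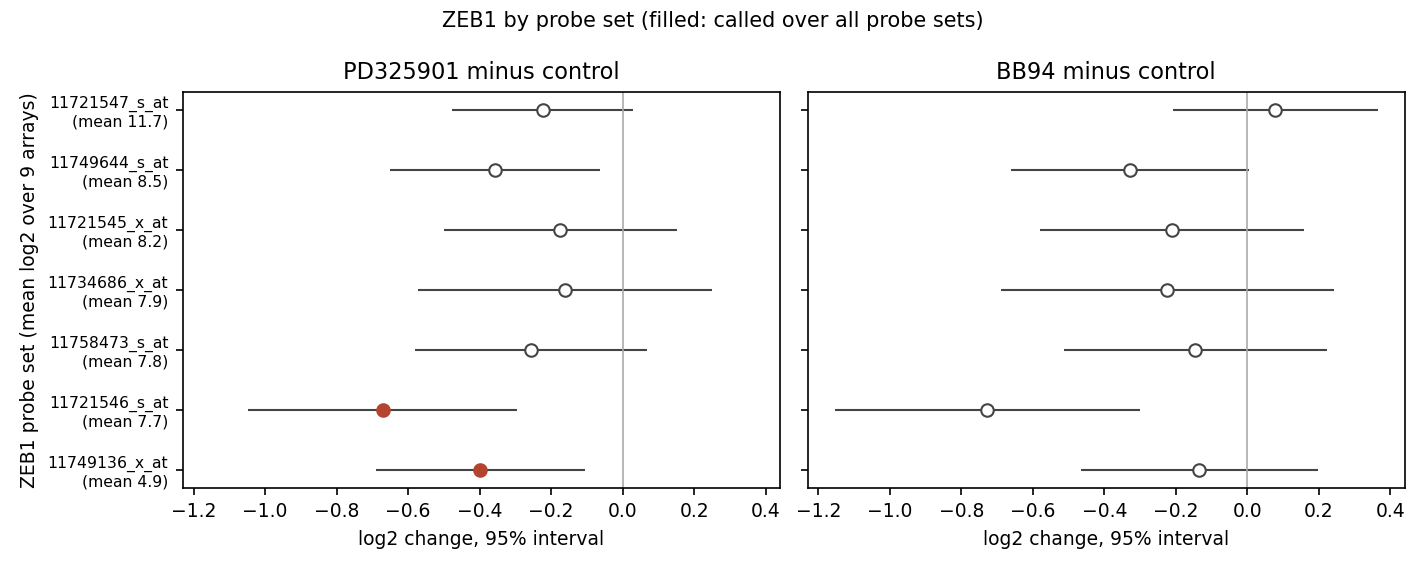
Log2 change (horizontal axis) of each of the 7 ZEB1 probe sets, listed down the page by mean level, for PD325901 minus control (left) and BB94 minus control (right). Bars are 95% intervals and filled points were called over all probe sets, which with PD325901 holds for 11721546_s_at (-0.67) and 11749136_x_at (-0.40).

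ZEB2 had 11.05, 10.85 and 11.05 in PD325901 cells, 10.76 and 10.77 in BB94 cells and 11.09, 10.85, 10.53 and 10.34 in control cells. The control arrays spanned the levels of both inhibitor groups. Its change was 0.28 with PD325901 (95% interval -0.07 to 0.63, adjusted p = 0.213) and 0.06 with BB94 (adjusted p = 0.967). Without control replicate 1 the PD325901 difference was called at 0.41 (adjusted p = 0.0241), and against control replicates 3 and 4 alone at 0.55 (adjusted p = 0.0021). The second ZEB2 probe set lay below background on every array, at 3.13 to 3.66, and was not called.

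SNAI and ZEB proteins read the E-box CACCTG, and ZEB1 is itself transcribed from several starts. Promoter windows of 250 bases before a start from RefSeq (GRCh38.p14) were at hand for ZEB1, ZEB2 and TWIST2, 3 of the 10 regulators, and those of the others were not used here. Windows of ZEB1 and ZEB2 are shown because these repressors lay above background on all 9 arrays, and that of ELF3 because it had the largest rise among the epithelial transcription factors listed below. They run 5′ to 3′ on the gene's strand, and capitals mark E-boxes, searched as CACCTG and, for the other strand, CAGGTG. The ZEB1 window, chr10:31318966-31319215 on the plus strand, is the one of its 7 starts with the most matches. The ZEB2 window is chr2:144520120-144520369 on the minus strand and the ELF3 window chr1:202010337-202010586 on the plus strand.
ZEB1: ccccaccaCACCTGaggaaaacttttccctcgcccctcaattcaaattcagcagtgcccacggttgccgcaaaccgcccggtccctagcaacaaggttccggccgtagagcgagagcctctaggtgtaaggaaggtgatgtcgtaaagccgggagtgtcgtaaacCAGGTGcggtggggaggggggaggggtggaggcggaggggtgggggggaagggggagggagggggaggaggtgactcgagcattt
ZEB2: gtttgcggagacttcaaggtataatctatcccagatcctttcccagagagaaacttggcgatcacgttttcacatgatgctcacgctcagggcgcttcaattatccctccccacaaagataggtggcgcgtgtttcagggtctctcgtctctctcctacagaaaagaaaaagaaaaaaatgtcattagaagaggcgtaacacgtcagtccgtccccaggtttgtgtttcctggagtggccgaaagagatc
ELF3: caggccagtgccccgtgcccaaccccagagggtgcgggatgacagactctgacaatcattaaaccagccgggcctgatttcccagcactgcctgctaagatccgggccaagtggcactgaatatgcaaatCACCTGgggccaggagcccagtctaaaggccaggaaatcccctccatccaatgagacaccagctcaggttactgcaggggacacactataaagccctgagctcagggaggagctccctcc
The ZEB1 window holds E-boxes that begin 242 and 85 bases before the start, 2 of its 7 windows hold any, the ELF3 window holds 1 that begins 120 bases before the start, and the windows of ZEB2 and TWIST2 hold none. Among 35116 windows of this length in the same table, 17.5% hold an E-box. AP-1 sites, searched as TGACTCA and TGAGTCA because FOSL1 encodes an AP-1 subunit, were in none of these windows and in 4.20% of all windows. A match describes the letters and does not show binding.

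TWIST1, TWIST2, GRHL2 and OVOL1 lay below background on all 9 arrays by every probe set, so no fold is given for them. TWIST1 read 2.71 to 3.10 in PD325901, 2.66 and 2.83 in BB94 and 2.51 to 3.00 in control cells. TWIST2 read 4.47 to 4.87 in PD325901, 4.27 and 4.70 in BB94 and 4.38 to 4.95 in control cells. The groups overlapped for both of these mesenchymal factors. GRHL2, a grainyhead factor that keeps epithelial enhancers open, read 3.64 to 3.91 in PD325901, 3.53 and 3.64 in BB94 and 3.40 to 4.00 in control cells. OVOL1, a zinc-finger repressor of ZEB1, read 4.65 to 5.21 in PD325901, 4.81 and 5.12 in BB94 and 4.84 to 5.21 in control cells. The groups overlapped for these as well, and none of their 11 probe sets was called in any comparison. Against a looser background level, the median of the background probe sets plus 3 MAD, TWIST2 and OVOL1 were above it on all 9 arrays and TWIST1 and GRHL2 were not.

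Both ESRP genes were called higher with PD325901. ESRP1 had 6.36, 6.04 and 6.15 in PD325901 cells, 4.21 and 4.41 in BB94 cells and 4.69, 4.54, 4.61 and 4.69 in control cells. The PD325901 arrays stood clear above all others and the BB94 arrays below all controls. The log2 change was 1.55 ± 0.10 SE with PD325901 (95% interval 1.34 to 1.77, adjusted p = 8.0e-07), -0.32 ± 0.11 SE with BB94 (95% interval -0.56 to -0.07, adjusted p = 0.281) and 1.87 for PD325901 over BB94 (95% interval 1.61 to 2.13, adjusted p = 1.1e-06). All 9 arrays were below the strict background level, so these are differences in signal with no fold given, and above the looser level on all 9. The second ESRP1 probe set read 4.49, 4.53 and 4.63 in PD325901, 3.92 and 4.28 in BB94 and 4.28, 3.90, 3.89 and 3.84 in control cells. It was called higher with PD325901 as well, by 0.57 (adjusted p = 0.0053). Between the inhibitors this second probe set was not called (0.45, adjusted p = 0.052). Its change with BB94 was 0.12, opposite in sign to the first and also not called (adjusted p = 0.864).

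ESRP2, the paralogue, was above background throughout. It had 8.08, 8.21 and 7.86 in PD325901 cells, 7.47 and 7.40 in BB94 cells and 6.88, 6.95, 7.40 and 6.80 in control cells. PD325901 arrays lay above all others, and control replicate 3 reached into the BB94 range. With PD325901 ESRP2 rose 2.05-fold (log2 change 1.04 ± 0.14 SE, 95% interval 0.72 to 1.36, adjusted p = 2.0e-04), and this was called under all 21 alternatives, at 0.79 to 1.17. With BB94 the change was 0.43 (95% interval 0.07 to 0.79, adjusted p = 0.336) and was not called. PD325901 cells were 1.53-fold above BB94 cells (log2 difference 0.61, 95% interval 0.23 to 0.99, adjusted p = 0.0188). That call was lost without BB94 replicate 1 (adjusted p = 0.0739), BB94 replicate 2 (0.116), PD325901 replicate 1 (0.0525) or PD325901 replicate 2 (0.0675). It was also lost under centring on the median gene (0.29, adjusted p = 0.168) or probe set (0.40, 0.0885) and under cyclic loess (0.34, 0.151).

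**Figure D3:**
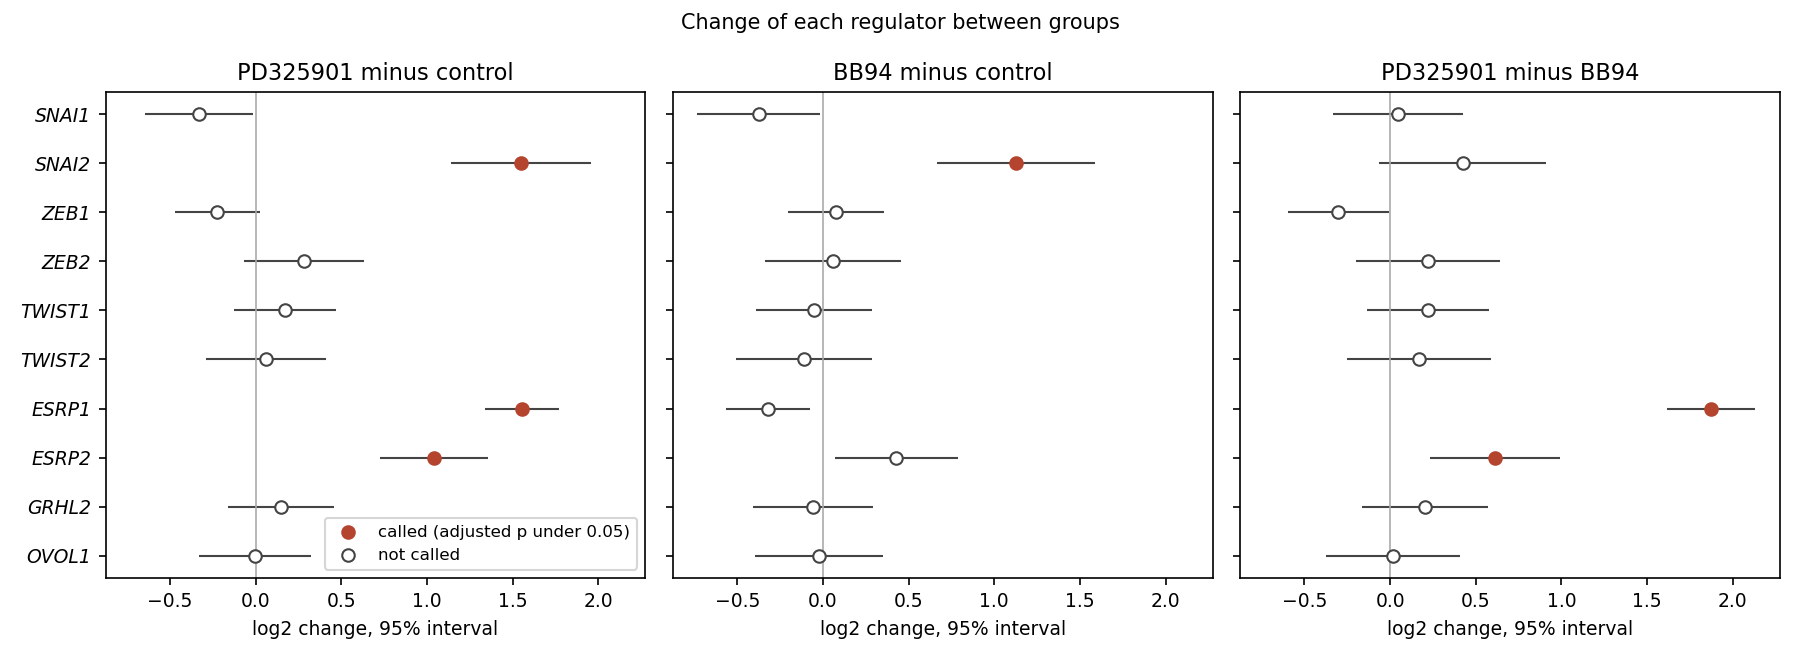
Log2 change (horizontal axis) with its 95% interval for each regulator, for PD325901 minus control, BB94 minus control and PD325901 minus BB94. Filled points were called at an adjusted p under 0.05: SNAI2 (1.55), ESRP1 (1.55) and ESRP2 (1.04) with PD325901, SNAI2 (1.12) with BB94, and ESRP1 (1.87) and ESRP2 (0.61) between the inhibitors.

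The profiles most like those of SNAI2 and ESRP2 were found among 10042 genes above background on all 9 arrays, by the root mean square difference of log2 values after each gene was centred on its own mean. For SNAI2 these were SLC7A2, a transporter of cationic amino acids (0.188), HPGD, the enzyme that inactivates prostaglandins (0.234), and RAB11FIP1, a Rab11 effector in recycling endosomes (0.244). The log2 difference from control was 1.30 with PD325901 and 0.81 with BB94 for SLC7A2, 1.56 and 1.37 for HPGD, and 1.10 and 0.67 for RAB11FIP1. For ESRP2 the nearest were NECAB3 (0.127), TAGLN, which encodes the actin-binding protein transgelin (0.129), and TENT5B (0.147). Their differences with PD325901 were 0.92, 1.02 and 0.94. These genes were picked by their values on the same 9 arrays, so the differences describe the likeness and are given with no test.

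**Figure D4:**
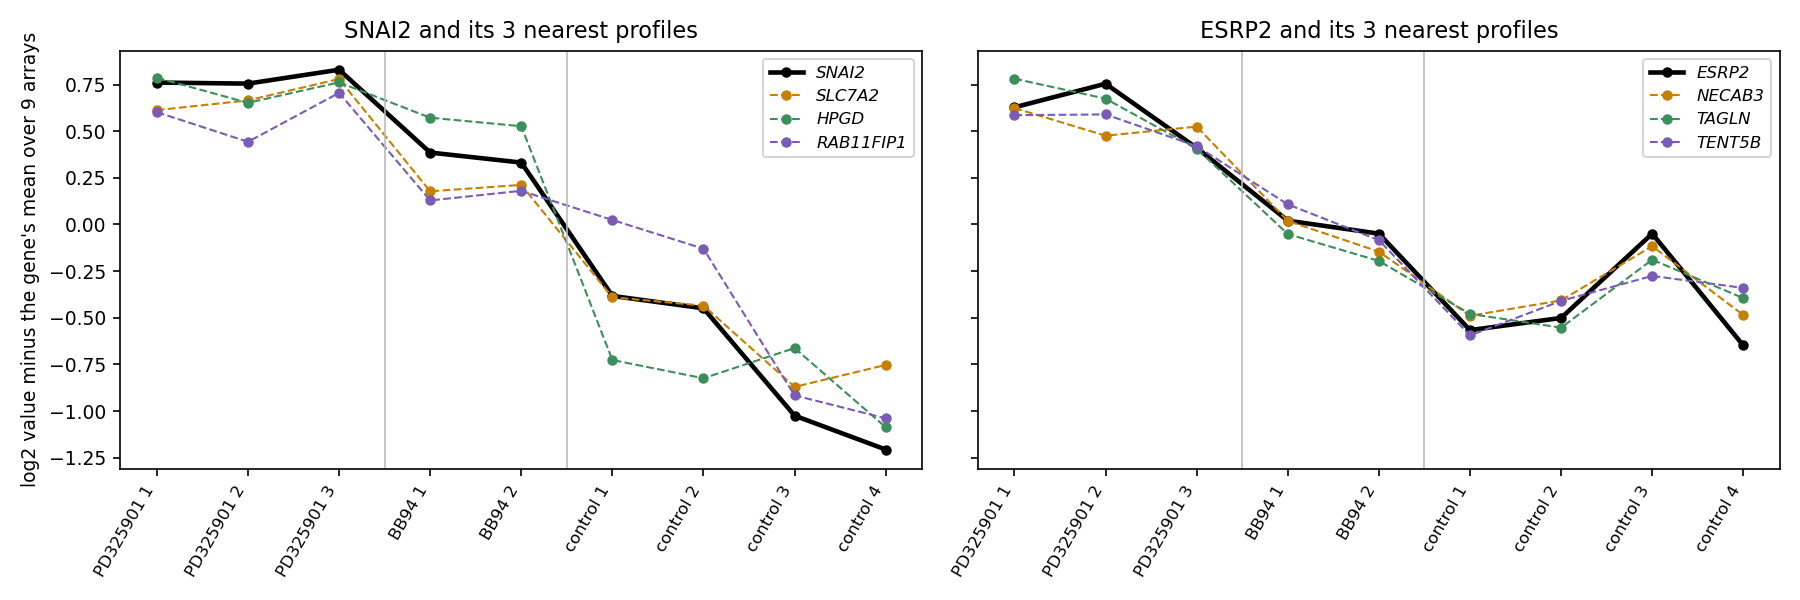
Log2 value minus the gene's mean over 9 arrays (vertical axis) on each array (horizontal axis) for SNAI2 (left) and ESRP2 (right), each with its 3 nearest profiles. Lines join the values of a gene and do not mark an order of arrays, and all 8 profiles are highest in PD325901 arrays.

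For the gene lists that follow, the shares called over all genes were 22.8% higher and 12.3% lower with PD325901. With BB94 they were 0.491% higher and 1.09% lower. PD325901 arrays lay above all control arrays for 25.6% of all genes and below them for 14.8%. For BB94 arrays these shares were 6.35% and 11.0%. The share of all genes at an unadjusted p under 0.05 was not counted, so list counts at that threshold have no background beside them. Around these regulators, other transcription factors that favour the mesenchymal state moved in both directions with PD325901. Of 14 measured, 3 were called higher (TCF4, NFIB and SOX4) and 4 lower (FOSL1, HMGA2, PRRX1 and TEAD1), with a median change of -0.03 against 0.08 over all genes. FOSL1, the AP-1 subunit FRA-1, had 8.80, 8.46 and 8.24 in PD325901 cells and 11.12, 11.36, 11.64 and 11.52 in control cells, and fell 7.52-fold (log2 change -2.91 ± 0.15 SE, adjusted p = 2.4e-07). HMGA2, a chromatin architectural protein, had 9.13, 8.85 and 9.08 against 10.04 to 10.50 in control cells and fell 2.37-fold (log2 change -1.24 ± 0.12 SE, adjusted p = 1.3e-05), by 3 of its 6 probe sets. TCF4, which encodes the E-box factor E2-2, had 8.75, 8.73 and 8.86 against 7.47 to 7.63 in control cells and rose 2.32-fold (log2 change 1.22 ± 0.08 SE, adjusted p = 9.8e-07), by 10 of its 11 probe sets, whose mean gave 0.79. For all 3 genes PD325901 and control arrays lay far apart, and in opposite directions. The homeobox gene PRRX1 fell 1.90-fold with PD325901 (log2 change -0.93, adjusted p = 1.0e-05), by 1 of its 2 probe sets. With BB94 the only call among the 14 was TCF4, which read 7.12 and 7.01 and fell 1.41-fold (log2 change -0.50, adjusted p = 0.0217). That call was lost without BB94 replicate 1 (adjusted p = 0.096), BB94 replicate 2 (0.313) or control replicate 2 (0.0611), under either centring (0.0876 and 0.0776), with only those 2 groups fitted (0.0958) and with the replicate block (0.122). A further 3 genes of the list had an unadjusted p under 0.05 with BB94.

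ELF3 stood out among 13 other epithelial transcription factors, of which 4 were called higher with PD325901 (ELF3, EHF, TFAP2A and GATA3) and 3 lower (TFAP2C, GRHL1 and KLF5), with a median of 0.03. ELF3, an ETS factor of epithelial cells, had 12.19, 12.18 and 12.12 in PD325901 cells, 7.31 and 7.02 in BB94 cells and 8.59, 8.59, 8.62 and 8.39 in control cells. The inhibitors thus placed it on opposite sides of the controls. It fell 2.61-fold with BB94 (log2 change -1.38 ± 0.11 SE, adjusted p = 2.0e-04) and rose by 3.61 on the log2 scale with PD325901. Its relative EHF had 6.88, 7.15 and 7.10 in PD325901 cells against 5.28 to 5.65, below background, in control cells, a rise of at least 1.78-fold (log2 change 1.57, adjusted p = 1.5e-06), by 3 of its 8 probe sets, whose mean gave 0.60. Such a bound sets the higher group's mean against the background level where the lower group lies under it. TFAP2A and GATA3, an AP-2 and a GATA factor of mammary epithelium, rose 2.17-fold and 1.86-fold (adjusted p = 2.05e-06 and 5.6e-05). TFAP2A was called by 2 of its 7 probe sets, whose mean gave a log2 change of 0.40 in place of 1.12 (adjusted p = 0.001), and GATA3 by 3 of 3. KLF5 was called lower with both inhibitors, by at least 1.35-fold with PD325901 (adjusted p = 0.0071) and at least 1.62-fold with BB94 (adjusted p = 0.0097). With BB94 that call was lost without either BB94 replicate (adjusted p = 0.134 and 0.0626), and with PD325901 against control replicates 1 and 2 alone (0.0522). The BB94 call was also lost with the replicate block (0.0596), and the mean of its probe sets gave -0.50 in place of -0.91. Array quality weights gave -0.34 in place of -0.52 with PD325901. ELF3 and KLF5 were the only calls of the list with BB94, where 3 genes had an unadjusted p under 0.05.

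Of 12 other splicing factors of the switch, RBM47 and MBNL2 were called higher with PD325901 and MBNL1, HNRNPM and CELF1 lower, with a median of -0.05. RBM47, an RNA-binding protein of epithelial cells, had 9.37, 9.45 and 9.69 in PD325901 cells, 6.16 and 6.06 in BB94 cells and 7.37, 7.16, 6.65 and 6.12 in control cells. PD325901 arrays lay above all others, and the controls spanned background, with 3 of 4 above it. It rose at least 6.22-fold (log2 change 2.68 ± 0.25 SE, adjusted p = 1.2e-05), by 3 of its 5 probe sets, whose mean gave 1.69. The BB94 change of -0.71 was not called (adjusted p = 0.366). It was called at -0.92 with array quality weights (adjusted p = 0.0377) and at -1.16 against control replicates 1 and 2 alone (0.0068), and stood at -0.27 against replicates 3 and 4 alone (0.369). The muscleblind genes went opposite ways: MBNL2 rose 1.75-fold (adjusted p = 8.1e-05) and MBNL1 fell 1.40-fold (adjusted p = 0.0162). The MBNL1 call was lost without PD325901 replicate 2 (adjusted p = 0.0674) or 3 (0.0528), and its log2 change of -0.48 ran from -0.26 against control replicates 3 and 4 alone to -0.80 by the mean of its 8 probe sets. HNRNPM, which favours mesenchymal splicing of CD44, fell 1.32-fold by its brightest probe set (adjusted p = 0.0024). Of its 3 probe sets 2 were called lower and 1 higher, and the mean of the 3 was not called (-0.17 in place of -0.40, adjusted p = 0.14). Centring on the median gene gave -0.65. With BB94 none of the 12 was called by limma, and 2 had an unadjusted p under 0.05.

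Junction, polarity and traffic genes known to be repressed by SNAI and ZEB proteins were mostly higher with PD325901. Of 20, 13 were called higher, 0 lower and 7 not called, with a median change of 0.62 against 0.08 over all genes. The called changes ran from 0.30 to 1.80, and under the 21 alternatives 10 to 14 were called higher and 0 lower. Over all genes 22.8% were called higher, and 9 of the 20 lay above background on all 9 arrays. The list was chosen with earlier results of these data known, so these counts describe its genes and do not test them as a set. The luminal markers given above share CDH1 and EPCAM with this list, and the part of their mixed shift in these counts was not tested. CLDN7, a claudin of tight junctions, had 8.81, 8.72 and 8.82 in PD325901 cells, 7.20 and 6.96 in BB94 cells and 7.14 to 7.39 in control cells, and rose 2.85-fold (log2 change 1.51 ± 0.09 SE, adjusted p = 6.6e-07). PATJ, a scaffold of the Crumbs polarity complex, and MUC1, a membrane mucin, rose at least 3.06-fold and at least 3.08-fold (adjusted p = 4.3e-06 and 4.8e-06), with 0 of 4 control arrays above background for PATJ and 1 of 4 for MUC1. The mean of the 7 PATJ probe sets gave a log2 change of 0.95 in place of 1.80. MAL2, a protein of transcytosis, rose 2.78-fold (adjusted p = 1.1e-06). CDH1 was called as well (1.39, adjusted p = 6.0e-06), by 1 of its 2 probe sets (0.75 by their mean), at 5.10, 4.92 and 4.64 in PD325901, 3.31 and 3.41 in BB94 and 3.32 to 3.60 in control cells. All of these CDH1 values lie below background, so no fold is given.

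With BB94, 1 of the 20 was called higher (CDS1) and 2 lower (CLDN4 and MAL2), with a median of -0.13 against -0.02 over all genes. CLDN4 averaged 6.37 ± 0.17 in BB94 cells and 7.14 ± 0.14 in control cells (SD, n = 2 and 4), and fell 1.71-fold (log2 change -0.77, adjusted p = 0.0071). MAL2 read 6.36 and 6.10 against 6.82 to 7.07 in control cells, and fell at least 1.56-fold (limma adjusted p = 0.0099). The BB94 arrays lay below all controls for both genes, and without BB94 replicate 2 both calls were lost (adjusted p = 0.163 and 0.201), as they were with the replicate block (0.0578 and 0.0615). MAL2 also lost its call with only those 2 groups fitted (0.0546) and by the mean of its probe sets (-0.37 in place of -0.70, adjusted p = 0.196). With PD325901 CLDN4 moved the other way, rising 1.33-fold (adjusted p = 0.0076), a call lost under centring on the median gene (0.16, adjusted p = 0.18) and under cyclic loess (0.19, 0.146). CDS1, a lipid enzyme gene, rose 1.37-fold with BB94 (log2 change 0.45, adjusted p = 0.0303) by 1 of its 3 probe sets, whose mean gave 0.08 (adjusted p = 0.919). It was called in 8 of 21 alternatives and lost without each of BB94 replicates 1 and 2, control replicates 2, 3 and 4 and any PD325901 replicate, at adjusted p of 0.0521 to 0.352.

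Mesenchymal genes were called in both directions. Of 19 measured, 6 were called higher with PD325901 and 3 lower (CDH11, TNC and ITGA5), with a median change of 0.08, equal to that of all genes at this precision. CDH2, which encodes N-cadherin, had 8.66, 8.51 and 8.59 in PD325901 cells, 7.14 and 6.82 in BB94 cells and 6.50 to 7.04 in control cells, and rose 3.50-fold (log2 change 1.81 ± 0.13 SE, adjusted p = 1.8e-06), by 1 of its 2 probe sets, whose mean gave 1.00. LOX, which crosslinks collagen, rose 2.29-fold, S100A4 2.11-fold and TAGLN 2.03-fold (adjusted p = 8.9e-05, 1.5e-06 and 5.3e-05). VIM, the intermediate filament gene, averaged 13.94 ± 0.03 in PD325901, 14.01 ± 0.07 in BB94 and 14.03 ± 0.08 in control cells (SD, n = 3, 2 and 4) and was not called (adjusted p = 0.448 with PD325901), although centring on the median gene gave -0.34 (adjusted p = 0.0163). With BB94 the only call was S100A4, which fell (log2 change -0.58, adjusted p = 0.006). It was lost without either BB94 replicate (adjusted p = 0.0789 and 0.0826), and 4 of the 19 had an unadjusted p under 0.05.

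**Figure D5:**
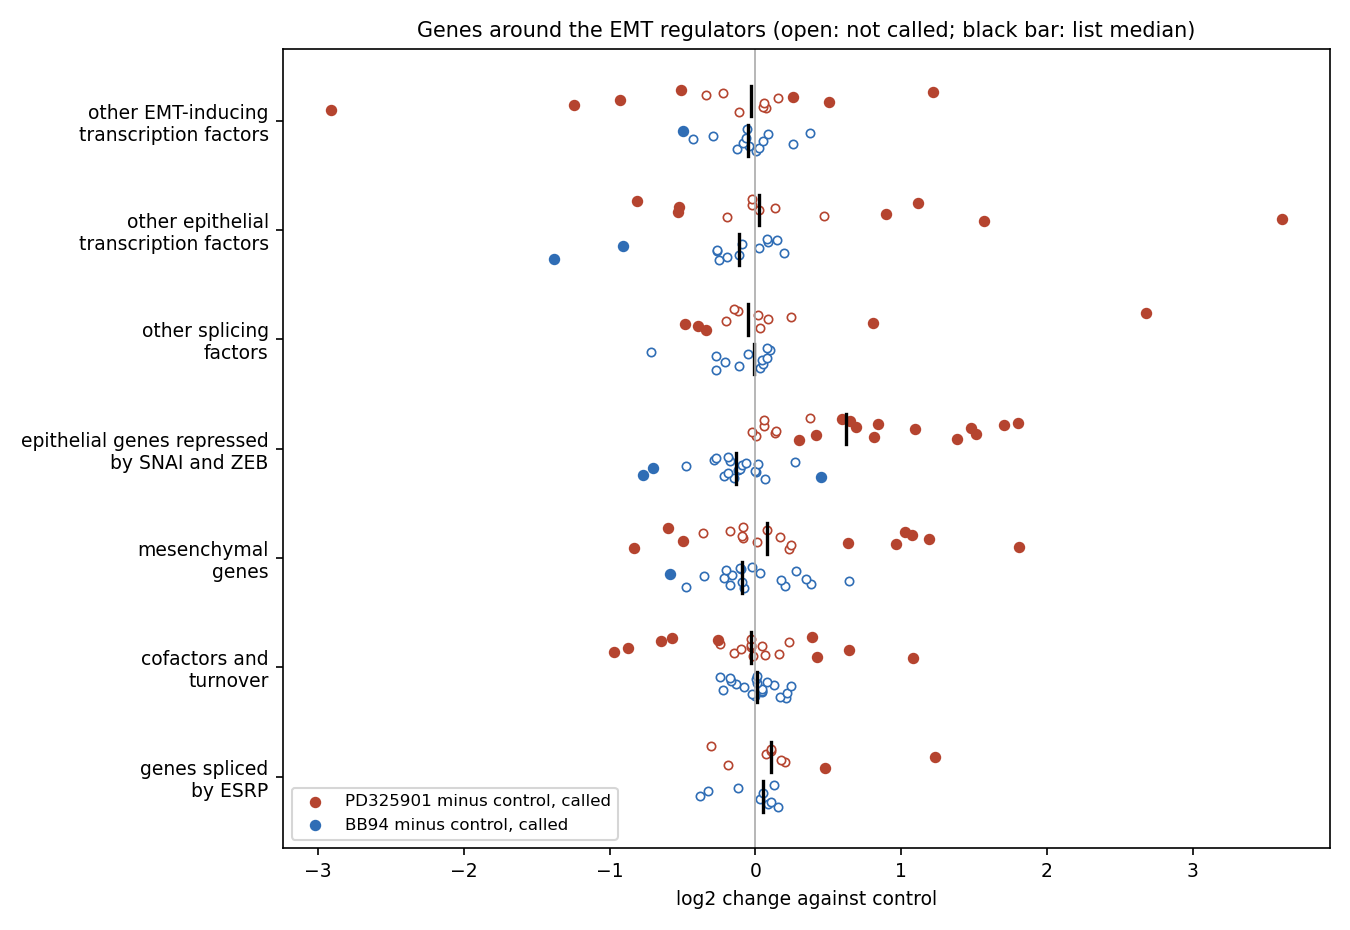
Log2 change against control (horizontal axis) of every measured gene in 7 lists, with PD325901 in the upper row and BB94 in the lower row of each list, filled points called, open points not called and black bars at the list's median. The epithelial genes known to be repressed by SNAI and ZEB proteins have the PD325901 median farthest from 0 (0.62). All 7 lists were chosen with earlier results of these data known.

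The proteins that serve SNAI, ZEB and TWIST as corepressors or control their turnover were measured by 20 genes, with a median of -0.03 under PD325901. AJUBA, FBXL14, BTRC and USP27X were called higher, and EZH2, FBXO45, LOXL2, SUZ12 and PRMT5 lower. AJUBA, a LIM corepressor partner of SNAIL, had 12.69, 12.66 and 12.67 in PD325901 cells against 11.38 to 11.80 in control cells and rose 2.12-fold (adjusted p = 1.4e-05). EZH2, the H3K27 methyltransferase, had 10.15, 10.08 and 10.03 against 10.98 to 11.14 in control cells and fell 1.96-fold (adjusted p = 3.5e-06). FBXO45, part of a ubiquitin ligase for EMT factors, fell 1.83-fold, and LOXL2, a SNAIL-stabilising oxidase, fell 1.56-fold (adjusted p = 2.6e-05 and 5.8e-04). PD325901 and control arrays did not overlap for these 4 genes, which were named for the size of their called change. Over all genes the PD325901 arrays lay above all control arrays for 25.6% and below them for 14.8%. With BB94 limma called none of the 20, and 0 had an unadjusted p under 0.05.

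Genes with exons known to depend on ESRP proteins were read at gene level only, since the probe sets as used here give no measure of exon choice. Of 9 measured, FGFR2 and ARHGEF11 were called higher with PD325901 and 0 lower, with a median of 0.11. FGFR2, a growth factor receptor gene, had 7.21, 7.48 and 7.37 in PD325901 cells, 5.86 and 5.63 in BB94 cells and 5.92 to 6.32 in control cells, and rose at least 2.10-fold (log2 change 1.23 ± 0.11 SE, adjusted p = 1.3e-05), by 2 of its 12 probe sets, whose mean gave 0.28 (adjusted p = 0.0211), and with 1 of 4 control arrays above background. ARHGEF11 stood 0.47 higher (adjusted p = 0.0393) by 1 of its 3 probe sets, was called in 8 of 21 alternatives and lost its call without any single PD325901 or BB94 replicate or without control replicate 3 or 4 (adjusted p = 0.0587 to 0.118). The mean of its probe sets gave 0.09 (adjusted p = 0.502), centring on the median gene 0.22 (0.286), control replicates 1 and 2 alone 0.19 (0.0886) and replicates 3 and 4 alone 0.76 (2.9e-04). CD44, whose exon choice is a usual readout of ESRP activity, was not called at gene level (log2 change -0.18 with PD325901 and 0.09 with BB94). With BB94 limma called none of the 9, and 1 had an unadjusted p under 0.05.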

How the data were processed

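The values are log2 probe set signals that the authors made with the affy package and RMA, per the labels' design text, and they were used as deposited. No source used here says whether all arrays were normalized in 1 run. Of 49395 probe sets, 102 controls were left out, and the platform annotation gave 1 symbol to 44988, several to 1832 and none to 2473. Symbols were checked against RefSeq (44961 matched, 0 updated), and the highest-mean probe set per gene gave 18132 genes. The 3 groups, taken from the labels, went into limma 3.58.1, under R 4.3.3 (lmFit, eBayes, no covariate, two-sided, 6 residual degrees of freedom), with Benjamini-Hochberg adjustment over all genes. The script was tested on simulated data. Arrays carry no read depth, and their number limits precision.

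The members, the cell type markers and the 7 gene lists (114 entries) were chosen with earlier results of these data known. Named are all members, up to 4 called genes by size per list and inhibitor, 3 nearest profiles of SNAI2 and ESRP2, and CDH1, VIM, DUSP6, CCND1 and FOSL1. NFIB, SOX4, TEAD1, TFAP2C, GRHL1, CELF1, CDH11, TNC, ITGA5, FBXL14, BTRC, USP27X, SUZ12, PRMT5 and CD44 lie outside this rule and were named after their values were seen. Some genes of the lists were not analysed here. The alternatives changed the probe set rule, filter, moderation, weights, scaling, arrays and replicate block.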

Additional observations from a re-analysis of the deposited data

Results flagged for a closer look

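In the control group, the only one of at least 4 arrays, 48 named genes were examined for an array far from the others, and 2 had one. Chance gives this in about 1 in 20 groups. ELF3 read 8.39 in control replicate 4 and 8.59 to 8.62 in the other controls, a gap of 0.848 of the range, past the critical value of Dixon's test. FBXO45 read 10.36 in control replicate 3 and 10.54 to 10.57 in the other controls, a gap of 0.842 of the range.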

How the results depend on the processing

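With PD325901 against control, 3 regulators were called, 5 under either centring (SNAI1 and ZEB1 were added, both lower) and 3 to 4 when any 1 array was left out. With BB94 against control, 1 was called, 0 when only those 2 groups were fitted (SNAI2 1.12, adjusted p = 0.101), and 0 to 1 without any 1 array. Between the inhibitors, 2 were called, 1 after a filter on dim genes, 1 after cyclic loess, 4 with array weights, 4 with only those 2 groups, and 1 to 2 without any 1 array. Calls over all genes between the inhibitors rose as well, to 5010 higher and 2442 lower with array weights. With only those 2 groups they were 4779 and 2322, against 3804 and 1848 in the main fit. Above background on all arrays were 4 regulators, and 8 with the looser level. Same-numbered PD325901 and control arrays had correlations of 0.05, -0.10 and -0.18 in their deviations, and other-numbered arrays -0.18 to 0.25. Deviations from a group's own mean depend on each other, so these correlations cannot decide whether replicate numbers pair the arrays. A shared day was not tested. With the replicate number as a block the regulators called were 3 with PD325901, 0 with BB94 (SNAI2 0.89, adjusted p = 0.0775) and 3 between the inhibitors, and the calls over all genes with BB94 were 51 higher and 110 lower, against 89 and 197. Centring on the median gene gave 2353 genes higher and 5076 lower with PD325901, centring on the median probe set 3292 and 2964, against 4142 and 2223 as deposited. With BB94 the splits were 125 and 151, and 217 and 149, against 89 and 197; between the inhibitors 1990 and 5025, and 2471 and 3523, against 3804 and 1848. Uncalled values of regulators changed sign in 13 of 205, 31 of 205 and 21 of 185 values for PD325901, BB94 and PD325901 against BB94, and no called value did. The cause of these differences was not tested. ESRP1 could not be tested after the filter on dim genes, and the looser level bears on how its signal is read. With 2 BB94 arrays, small changes with BB94 would not be detected.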
